A study of Mus musculus with 4 samples.

Results

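miR-21 was followed on all 4 arrays of a study of neural stem and progenitor cells grown from mouse embryonic stem cells. It was taken as every spot whose systematic name is mmu-miR-21, which gave 1 of the 611 mouse miRNAs on the array, 2 of the 1857 probes and 20 of the 13000 spots outside the controls. The cells grew as neurospheres, floating clusters of dividing neural progenitors, in cultures that mixed wild-type cells with cells overexpressing NFIA, a transcription factor that turns neural progenitors toward glia. The 2 kinds of cell were sorted apart by fluorescence before RNA was taken. One array was made for each of 4 groups: secondary neurospheres (passage 1, 12 days of culture from embryoid bodies) titled NFIA OE, secondary neurospheres titled control, primary neurospheres (passage 0, 6 days) titled NFIA OE, and primary neurospheres titled control. Titles and source names contradict each other: at each passage the source name says NFIA OE line for the array titled control, and WT for the array titled NFIA OE. Groups are named here by title, and every difference by title turns its sign if the source names are right. Differences by passage are not touched by it. The 2 arrays of each passage share 1 mixed culture and no group had a replicate, so p-values speak for the spread among these 4 arrays alone. The labels give no promoter for the NFIA transgene and no number of clones.

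miRNAs are short RNAs that guide the Argonaute proteins to messenger RNAs, mainly by pairing of the seed, bases 2 to 8, and so lower the output of those messages. miR-21 is known for its high level in growing, injured and transformed cells, where it is induced by the transcription factors STAT3 and AP-1 and represses growth brakes and death-promoting factors such as Pdcd4 and Spry1. In the nervous system it is best known from glioma and from reactive astrocytes after injury.

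The mouse gene table places Mir21a inside the span of Vmp1, a gene for a vacuole membrane protein, and its hairpin lies at chr11:86584067-86584158 on the minus strand of GRCm38.p6. The hairpin is shown first because both of its arms have probes on the array. Capitals mark the 5p arm, which is the mature miR-21 that the arrays report, and then the 3p arm, named miR-21* on this array. All sequences are from RefSeq, written 5′ to 3′.
Mir21a hairpin: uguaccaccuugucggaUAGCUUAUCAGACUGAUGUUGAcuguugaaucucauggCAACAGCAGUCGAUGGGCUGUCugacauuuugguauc
The mature miRNAs follow with the seed in capitals, to show which other mouse miRNAs could share targets or be mistaken for miR-21.
miR-21a-5p (chr11:86584120-86584141, minus strand): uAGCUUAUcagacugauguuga
miR-21a-3p (chr11:86584082-86584103, minus strand): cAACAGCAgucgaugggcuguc
miR-21c (chr8:128278188-128278208, minus strand): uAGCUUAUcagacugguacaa
miR-21b (chr3:29636768-29636790, plus strand): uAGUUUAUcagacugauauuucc
Of 1679 mature mouse names in the RefSeq table, 2 carry the miR-21 seed AGCUUAU, namely miR-21a-5p and miR-21c. miR-590 has no entry there, so miR-590-5p, which has probes on this array, could not enter that count. miR-21c shares its first 15 bases with miR-21 and is identical at 16 of 21 positions counted from the 5′ end. miR-21b has another seed but is identical to miR-21 at 18 of 22 positions. Neither miR-21b nor miR-21c has a probe under its own name on this array, so the arrays do not measure them separately.

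miR-21 was among the brightest miRNAs on every array, and both of its probes were bright and even. All 20 spots were well above background on all 4 arrays, none (0) carried an outlier flag, and none (0) was saturated. Probe A_54_P1307 read 1728 ± 102 intensity units on the secondary array titled NFIA OE and 2803 ± 177 on the secondary array titled control, against 731 ± 64.5 on the primary array titled NFIA OE and 415 ± 27.1 on the primary array titled control (SD, n = 10 spots). Probe A_54_P1308 read 1047 ± 45.9 and 1652 ± 68.6 units on the same secondary arrays, against 451 ± 29.4 and 262 ± 19.6 units on the same primary arrays (SD, n = 10 spots). The order of the 4 arrays was the same for both probes, and within a probe no spot of a secondary array was as dim as a spot of a primary array. Spots on 1 array are technical repeats, with a spread of 4.15% to 8.81% of their mean. The dimmest miR-21 reading, 224 units from a spot of A_54_P1308 on the primary array titled control, stood well clear of that array's median negative control of 3.72 units. Probe A_54_P1307 was the brighter by 1.65-fold and 1.70-fold on the secondary arrays titled NFIA OE and control, and by 1.62-fold and 1.58-fold on the primary ones, so the 2 probes gave nearly the same ratio at each level of signal.

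**Figure D1:**
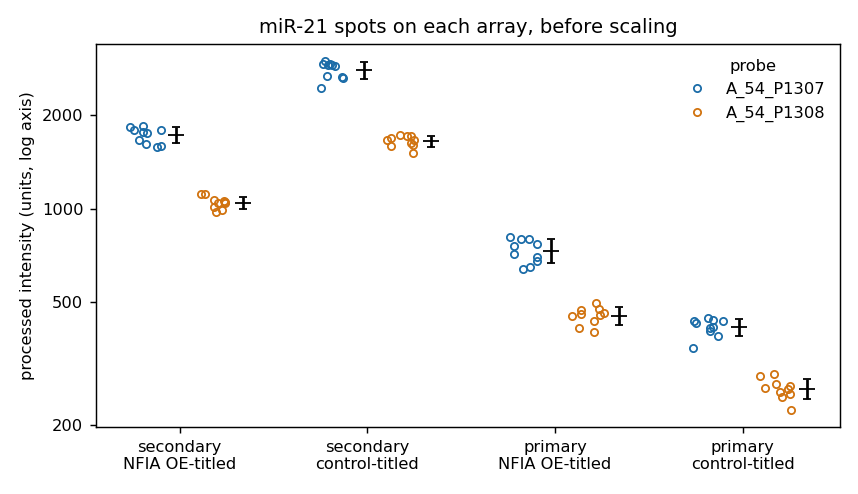
Processed intensity of each miR-21 spot (log axis) on the 4 arrays, before scaling between arrays; open circles are spots, and bars are the mean and SD of 10 spots of a probe. Both probes are brightest on the secondary array titled control and dimmest on the primary array titled control, with no overlap between secondary and primary arrays within a probe.

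The arrays themselves differed in brightness in the same direction as miR-21. The 75th percentile of signal over probes detected on all 4 arrays was 369 and 443 units on the secondary arrays titled NFIA OE and control, and 261 and 167 units on the primary ones. Each array was therefore divided by its own percentile, and levels below are log2 values on which 0 is that percentile. The arrays detected 207 and 209 mouse miRNAs in secondary neurospheres titled NFIA OE and control, and 220 and 186 in primary neurospheres. All arrays came from 1 slide, and position on the slide cannot be told apart from passage and title.

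On this scale miR-21 stood at 1.87 in secondary neurospheres titled NFIA OE and at 2.28 in those titled control, against 1.14 in primary neurospheres titled NFIA OE and 0.98 in those titled control. Both secondary values lay above both primary values, and within a passage the 2 titles lay closer together than the passages did. Ordered from the top, secondary control-titled, secondary NFIA OE-titled, primary NFIA OE-titled and primary control-titled cells followed each other at steps of 0.41, 0.73 and 0.16. A difference between 2 single arrays has a standard error (SE) of 0.42, taken from the spread pooled over all miRNAs. The first and the last step were within that SE, and the middle one, which separates the passages, was beyond it. A single SE is no test of a step, and the steps were ordered after their values were seen.

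By brightness, miR-21 ranked 7 of 207 detected mouse miRNAs in secondary neurospheres titled NFIA OE and 6 of 209 in those titled control, against 12 of 220 and 15 of 186 in primary neurospheres titled NFIA OE and control. Probes differ in how well they bind, so a rank orders signals and not copies per cell, and only the same probe's rank across arrays is compared here. Directly above miR-21 stood miR-19b, let-7a, miR-20b and miR-107 on these arrays in turn. Directly below it stood miR-9, miR-9*, let-7f and miR-103. miR-19b and miR-20b belong to the proliferation-linked miR-17 clusters, while let-7 and miR-9 are miRNAs of differentiating and neural cells. With Feature Extraction's total signal per miRNA in place of the mean over probes, the ranks were 7 and 6 in secondary and 13 and 17 in primary neurospheres, in the same order of titles.

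miR-21 gave 2.86% and 3.41% of the summed total signal of all detected mouse miRNAs in secondary neurospheres titled NFIA OE and control, and 1.58% and 1.44% in primary neurospheres. This share needs no scaling between arrays, but it does depend on the few brightest miRNAs, since the top 10 held 41.5% to 45.6% of the signal. Rank and share thus placed the arrays in the same passage order as the scaled level.

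**Figure D2:**
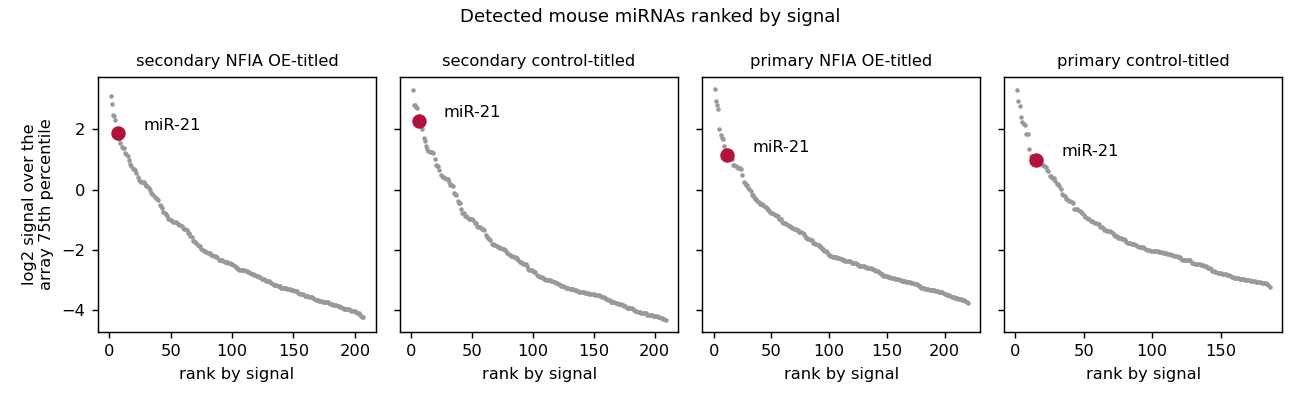
Log2 signal of every detected mouse miRNA over its array's 75th percentile, against its rank by signal, with miR-21 as the large point. miR-21 ranks 7 and 6 on the secondary arrays titled NFIA OE and control, and 12 and 15 on the primary ones.

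miR-21 rose 2.02-fold in secondary over primary neurospheres, the comparison that asks how miRNAs differ with passage and time in culture, which go together in these samples. The log2 difference was 1.02 (SE 0.29, 95% interval 0.43 to 1.60, n = 2 arrays per passage, both from the same mixed culture). Its adjusted p was 0.00269 in a limma fit of passage and title to the 153 miRNAs detected on all 4 arrays. That fit takes in no spread between cultures. In that fit 70 miRNAs (45.8%) were called by passage in either direction and 20 (13.1%) were called higher and 50 (32.7%) lower, and miR-21 had the 12th highest difference of the 153. Most miRNAs were not higher: the median difference was -0.39, and 26.8% of the 153 were above 0. Relative to that median miR-21 was higher by 1.41 (limma adjusted p = 4.15e-05), a value that no common scaling of an array changes. These are bulk samples, in which a change in the makeup of the cells and a change of miR-21 within a cell cannot be told apart. Both secondary arrays lay above both primary arrays for 23 miRNAs (15%), miR-21 among them. An exact two-sided permutation test of miR-21 alone over 2 against 2 arrays gave p = 0.333, which is the smallest that this design allows.

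The difference was there in both pairs of arrays and in both probes. In the pair titled NFIA OE miR-21 was 1.66-fold higher in secondary neurospheres, a log2 difference of 0.73, and in the pair titled control it was 2.47-fold higher, at 1.30. Matched by position on the array, 20 of 20 spots were higher in each pair, at 0.61 to 0.82 in the pair titled NFIA OE and 1.13 to 1.44 in the pair titled control. miR-21 held the 14th highest difference of 153 in each pair, where 8 miRNAs (5.23%) and 16 miRNAs (10.5%) were at least 2-fold higher in the pairs titled NFIA OE and control. With single probes in the fit, A_54_P1307 gave 1.05 and A_54_P1308 gave 0.98 (limma adjusted p = 0.0019 and 0.00376). The pair titled NFIA OE differed from the pair titled control by -0.57 in how far miR-21 moved, which was the 46th largest such gap of 153 against a median size of 0.35. That gap had no test, because 1 array per group leaves nothing to judge it against.

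The size of the passage difference, though not its direction, varied with the scaling. Across 15 alternatives it ran from 0.95 to 1.97, above 0 in each, and was called in 14 of them. Some of these, such as the detection filters, leave the miR-21 value itself as it was. The largest difference came without scaling, where the brighter secondary arrays add to it, and the smallest with quantile normalization. The authors' deposited table of processed values gives miR-21 at 59.6 and 86.6 in secondary neurospheres titled NFIA OE and control, against 22.8 and 22.5 in primary neurospheres, and a limma fit on log2 of that table gave 1.67 (adjusted p = 8.27e-07). It was not called when all 650 mouse and viral miRNAs entered the fit with no detection filter, with a difference of 1.02 and a limma adjusted p of 0.0795. The 20 higher and 50 lower calls over all miRNAs became 39 and 17 on the authors' values. They were 20 and 1 on unscaled arrays, 14 and 73 after normexp correction of the background, 25 and 5 where the percentile ran over all probes, 22 and 39 after median centring, and 29 and 35 after quantile normalization.

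**Figure D3:**
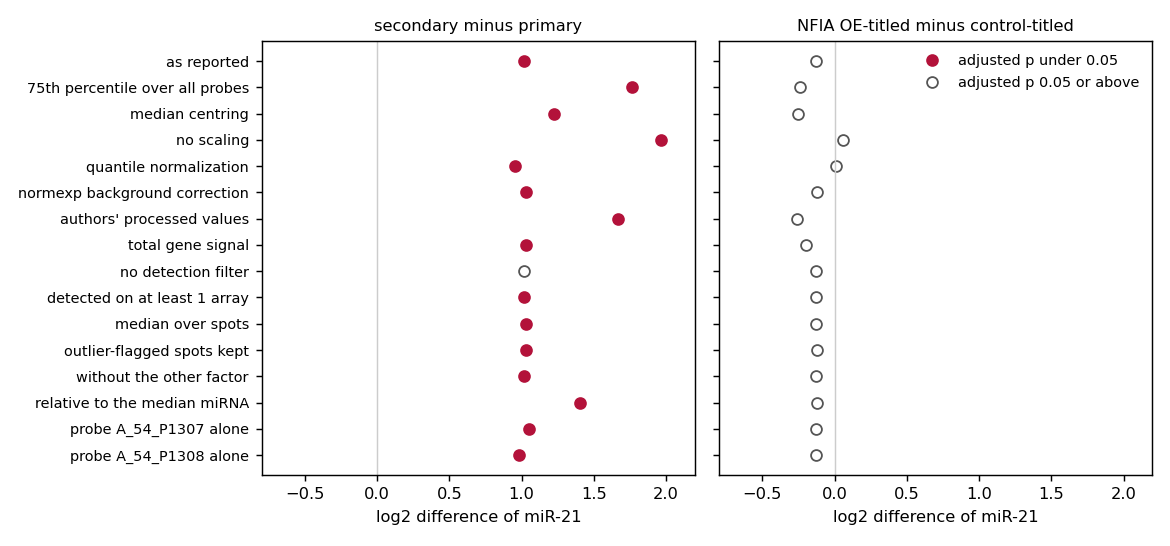
Log2 difference of miR-21 in secondary over primary neurospheres (left) and in NFIA OE-titled over control-titled cells (right) as reported and under 15 alternatives; filled points have a limma adjusted p under 0.05. The passage difference lies between 0.95 and 1.97 in the alternatives, while the title difference lies between -0.26 and 0.06.

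By title, the comparison that asks about NFIA overexpression, miR-21 gave no call. The log2 difference between arrays titled NFIA OE and arrays titled control was -0.13 (limma adjusted p = 0.92, SE 0.29, 95% interval -0.71 to 0.46, 2 arrays for each title), and it was the 100th highest of 153. The interval in this fit does not reach a 2-fold change either way, but takes in smaller ones. That bound depends on the processing. The SE was 0.565 without scaling and 0.603 in a fit without passage, wide enough for the interval to take in 2-fold changes. In the fit as reported 4 miRNAs (2.61%) were called by title, 2 higher and 2 lower (1.31% each). The difference turned its sign to 0.061 without scaling and to 0.0094 with quantile normalization, and was called in 0 of 15 alternatives.

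The 2 passages gave title differences of opposite sign for miR-21. In secondary neurospheres it was 1.33-fold lower on the array titled NFIA OE, at -0.41, and 0 of 20 matched spots were higher. In primary neurospheres it was 1.12-fold higher on the array titled NFIA OE, at 0.16, and 20 of 20 spots were higher, the least by 0.02. Each difference was within the SE of 0.42 for 2 single arrays, and the even behaviour of the spots speaks only for the scan of each array. At least 2-fold higher on the array titled NFIA OE were 3 miRNAs (1.96%) in secondary and 9 miRNAs (5.88%) in primary neurospheres. On the authors' processed values the secondary and primary differences were -0.54 and 0.021. With median centring they were -0.51 and -0.004, so the opposite signs were not kept under every scaling.

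**Figure D4:**
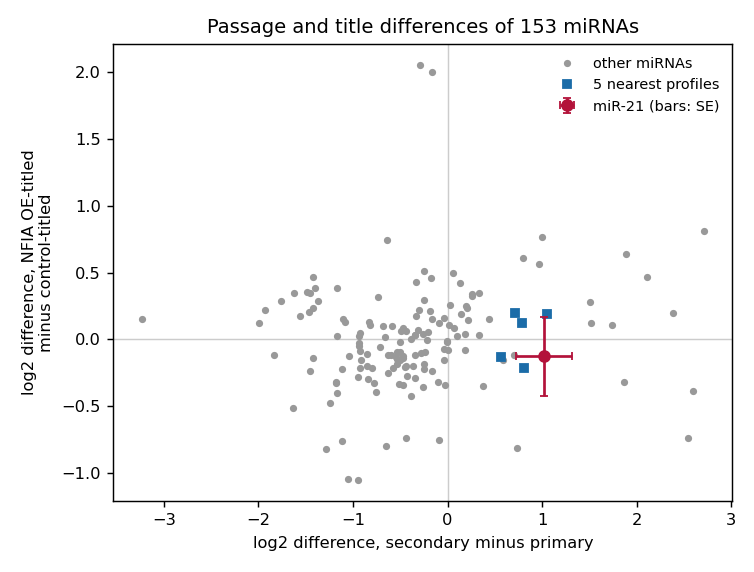
Log2 difference in NFIA OE-titled over control-titled cells against that in secondary over primary neurospheres, for 153 miRNAs from 1 limma fit; miR-21 is shown with its SE of 0.29 in both directions, and squares are the 5 miRNAs with the nearest profiles. miR-21 lies at 1.02 by passage and -0.13 by title.

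The other arm of the hairpin was not well above background. miR-21*, chosen for description after its values were seen, had 4 probes, of which 0 were detected on any array. Their mean signals ran from -6.14 to -1.0 units and from -4.32 to 0.29 units on the secondary arrays titled NFIA OE and control, and from -4.63 to 0.21 and -4.36 to -1.38 units on the primary ones. The lowest detected probe of any array stood at 16.6 units. miR-590-5p, known in human to carry the same seed as miR-21, had 3 probes and was also detected on 0 of 4 arrays. miR-21 was therefore the only one of these with a measured level here.

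The profiles most like that of miR-21 came from miRNAs that were also higher in secondary neurospheres. Likeness was the Euclidean distance between log2 levels over the 4 arrays after each miRNA's own mean was taken off, a measure that a common scaling of an array does not change. miR-27a was nearest at 0.32, then miR-23a at 0.35, miR-582-5p at 0.45, miR-129-3p at 0.46 and miR-125b-5p at 0.47, against a median distance of 1.54 over the other miRNAs. With 4 arrays and 1 difference that dominates them, these distances are a description with no test. miR-27a stood at -1.07 and -0.97 in secondary neurospheres titled NFIA OE and control, against -1.83 and -2.31 in primary neurospheres. miR-23a stood at -0.55 and -0.46 against -1.12 and -1.46 on the same arrays. Both were called higher in secondary neurospheres, at 1.05 and 0.78 (limma adjusted p = 0.0019 and 0.0213), as were miR-582-5p at 0.81 and miR-125b-5p at 0.71 (limma adjusted p = 0.0172 and 0.0388), while miR-129-3p at 0.57 was not (adjusted p = 0.109). The gene table lists Mir23a and Mir27a beside each other and beside Mir24-2, and miR-24, which the array reads without regard to its locus, differed by 0.19 and was not called. The sequences of the nearest pair are given because their seeds, in capitals, differ from that of miR-21.
miR-27a-3p (chr8:84208727-84208747, plus strand): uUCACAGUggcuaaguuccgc
miR-23a-3p (chr8:84208563-84208583, plus strand): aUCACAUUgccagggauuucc

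**Figure D5:**
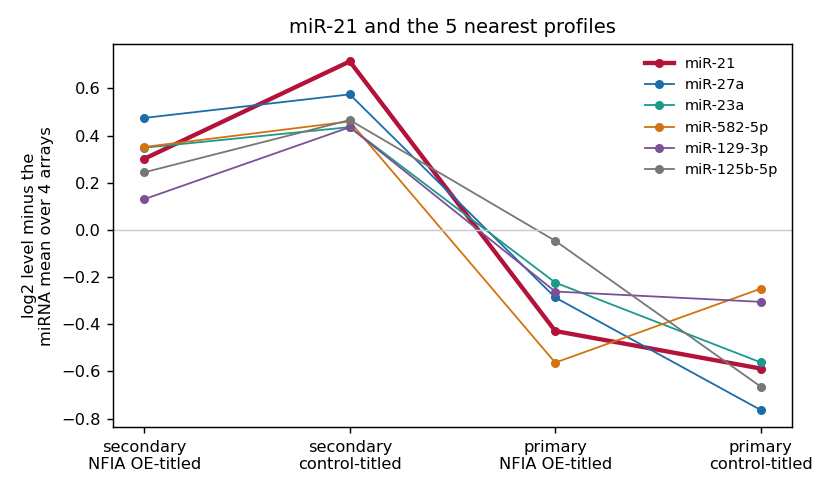
Log2 level of miR-21 and of the 5 miRNAs with the nearest profiles on the 4 arrays, each minus its own mean over the arrays. All 6 are higher on both secondary arrays than on both primary arrays, and miR-582-5p is the one that lies lower on the primary array titled NFIA OE than on the primary array titled control.

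Few of the miRNAs commonly named with miR-21 in growth, inflammation and injury could be tested. Of 11 others on that list 2 were detected on all 4 arrays. miR-210, a hypoxia-induced miRNA, rose by 2.54 in secondary over primary neurospheres (limma adjusted p = 3.24e-13), and miR-181b differed by 0.26 and was not called (adjusted p = 0.495). The difference of miR-21, at 1.02, lay between them. miR-31, miR-146a, miR-146b and miR-222 were detected on 0 of 4 arrays. miR-10b and miR-132 were detected on both secondary arrays and neither primary array, miR-155, a miRNA of activated immune cells, on both primary arrays and neither secondary array, and miR-221 on all but the primary array titled control. miR-212 was detected only on the secondary array titled control. The faintest detected miRNA stood at -4.24 and -4.34 on the secondary arrays titled NFIA OE and control, against -3.77 and -3.24 on the primary ones. Where detected, miR-132, miR-212 and miR-221 lay below the faintest miRNA of each primary array that missed them. Their absence there therefore does not show a lower level. miR-10b, at 0.27 and -1.81 on the secondary arrays, lay above it.

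Among miRNAs enriched in astrocytes, miR-27a and miR-23a rose with passage, as miR-21 did, while miR-27b and miR-23b did not. Of 10 on that list 9 were tested, 2 were called higher in secondary neurospheres and 0 lower, beside 13.1% and 32.7% of all miRNAs, and the median difference was 0.19, beside -0.39 over all 153. By passage, 6 of 9 had values above 0, beside 26.8% of all miRNAs, and miR-23b, miR-26b and miR-27b lay below it. After miR-27a and miR-23a the largest was miR-29c at 0.44, which was not called, then miR-23b at -0.25 and miR-26a at 0.22. By title, 9 of 9 had values above 0, beside 49.7% of all miRNAs, with a median of 0.15 and 0 calls, while miR-21 was at -0.13. Their summed scaled level, over members detected on each array, was 5.88 and 5.81 in secondary neurospheres titled NFIA OE and control, and 5.58 and 4.57 in primary neurospheres, as multiples of the array's 75th percentile.

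The detection and summed level of some miRNA markers of other cells also differed between the passages. Of 11 markers of pluripotent cells, the miR-290 and miR-302 clusters, 7 and 1 were detected in secondary neurospheres titled NFIA OE and control, and 11 and 10 in primary neurospheres, with summed levels of 0.52 and 0.05 against 4.72 and 5.74. The 1 member detected on all 4 arrays, miR-302b, was called lower in secondary neurospheres at -3.24 (limma adjusted p = 7.65e-19), as were 32.7% of all miRNAs tested. On the secondary array titled control, where miR-21 was highest, miR-302b was the only one of the 11 still detected. It was there the faintest of 209 detected mouse miRNAs, at -4.34. The size of its passage difference therefore rests partly on a value at the edge of detection. Of 10 neuronal markers 9 and 10 were detected in secondary and 7 and 8 in primary neurospheres, with summed levels of 7.68 and 11.2 against 3.77 and 5.14 in the same order of titles. miR-132 and miR-7b, detected only on secondary arrays, lay there below the faintest miRNA detected on either primary array. Like miR-21, that sum was highest on the secondary array titled control. Of the 7 neuronal markers tested, 2 were called higher in secondary neurospheres, beside 13.1% of all miRNAs, and 2 lower, beside 32.7%. Called higher were miR-9 and miR-9* at 1.87 and 2.60, and called lower were miR-124 and miR-7a at -1.28 and -1.12. The values of 2 of the 7 were above 0, and their median of -0.38 was near the -0.39 over all 153. Of 4 oligodendrocyte markers 2 were detected on each secondary array, and 2 and 1 on the primary arrays titled NFIA OE and control, with summed levels of 1.02 and 1.22 against 1.01 and 1.86, and the 1 tested, miR-219, was not called by passage (-0.44, limma adjusted p = 0.215). The part of these cell types in the level of miR-21 was not tested.

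Some mesenchymal and endothelial markers, known from cells that are rich in miR-21, differed by title, and all of these were forms of miR-199 or miR-214. Of 8 on that list, 4 and 2 were detected in secondary neurospheres titled NFIA OE and control, and 4 and 2 in primary neurospheres, with summed levels of 1.63 and 0.25 against 1.48 and 0.36. Where this sum was lower, on the arrays titled control, miR-21 was higher in the secondary pair and lower in the primary pair. The part of such cells in the level of miR-21 was not tested. These counts and sums came from miR-199a-3p, miR-199a-5p, miR-199b* and miR-214 alone. The 2 tested, miR-199a-3p and miR-199b*, were both called higher on arrays titled NFIA OE, beside 1.31% of all miRNAs. Their median title difference was 2.03. miR-126-3p, miR-126-5p, miR-143 and miR-145, known from endothelial and smooth muscle cells, were detected on 0 of 4 arrays, so they showed no difference by title. Of 5 markers of blood cells and microglia, 0 were detected on any array, among them miR-142-3p and miR-223.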

How the data were processed

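Total RNA with its small fraction was labelled with Cy3 and hybridised to 4 one-colour Agilent mouse miRNA arrays, per the labels' protocols. Spot intensity in the deposited scanner output is linear, spatially detrended and background-subtracted by Feature Extraction 10.5.1.1, and arrays are not scaled to each other in it, per the file headers. The authors' table of processed intensity was found to equal the total gene signal over 1 constant for each array (31.0, 33.7, 34.1 and 20.3 on the secondary NFIA OE-titled, secondary control-titled, primary NFIA OE-titled and primary control-titled arrays), without log or centring. The sources used here do not say how the constants were set. Its column medians were 0.816, 0.7, 0.83 and 0.882 in that order.

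Control spots and spots with an outlier flag (265 to 300 per array) were left out, and spots were averaged per probe. A probe was detected where 50% or more of its spots stood well above background. Arrays were divided by their 75th percentile over probes detected on all 4, then put on the log2 scale by this work, and a miRNA was the mean of its probes detected on all 4. For ranks and summed levels it was the mean of its probes detected on the array in question. The deposited values are not on a log2 scale. limma 3.58.1 in R 4.3.3 fitted passage and title additively to 153 miRNAs, with 1 residual degree of freedom each and a spread of 0.29 log2 pooled over miRNAs by an infinite prior. That residual also takes in any interaction. Calls are at a Benjamini-Hochberg adjusted p under 0.05 over all 153. The number of arrays limits the precision. The fit was tested on simulated data with noise at the pooled spread. It called 69.1% of 2-fold changes by passage and 52.5% by title, and 100% and 93.6% of 4-fold ones. False calls were 3.48% and 2.61% of the calls. The simulated noise was independent and of the same spread for every miRNA and array, as the fit assumes. These shares therefore check the fit and do not give the share of false calls in the real data. Named miRNAs are miR-21, those of its seed, the 5 nearest profiles, up to 5 members of the growth and astrocyte lists by size of passage difference, and its neighbours in rank. Other list members, named for where they were detected or for how they differed, fall outside this rule and were chosen after their values were seen. miR-21 and the lists were chosen with earlier results of these data known. Alternatives covered the scaling, the background correction, the detection filter, the spot summary, the design and each probe alone. RefSeq sequences are of GRCm38.p6, and the array files give no build.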

Additional observations from a re-analysis of the deposited data

Results flagged for a closer look

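The title difference of miR-21 had opposite signs in the 2 passages, at -0.41 in secondary neurospheres and 0.16 in primary neurospheres (log2, NFIA OE-titled minus control-titled, 1 array on each side). The gap between these differences was not tested, because 1 array per group leaves no residual for it.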

How the results depend on the processing

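The passage difference of miR-21 kept its direction in 15 of 15 alternatives (0.95 to 1.97) and its call in 14. With no detection filter it was 1.02 with a limma adjusted p of 0.0795, in a fit of 650 miRNAs in place of 153. The difference itself could not move with the detection filters or without the title term, and each probe alone is a part of the reported mean. The title difference stayed uncalled in 15 of 15 (limma adjusted p from 0.779 to 0.999), and reversed to 0.061 without scaling and 0.0094 with quantile normalization. The cause was not tested. In the pair titled NFIA OE the passage difference was 1.30 with the percentile over all probes, 1.23 without scaling and 1.39 with the authors' values, and in the pair titled control it was 2.23, 2.71 and 1.95. The primary title difference was 0.80 without scaling. Calls by passage were 70 as reported, 30 with the percentile over all probes, 21 without scaling and 108 with detection on at least 1 array. Calls by title were 4 as reported, 2 with the percentile over all probes, without scaling and with no filter, 7 with median centring, and 0 in the limma fit that left out passage, where 2 miRNAs passed an unadjusted p under 0.05. The title fit as reported is paired within each mixed culture through its passage term, and without that pairing miR-21 differed by -0.13 (limma adjusted p = 0.989). Leaving out an array leaves the additive fit no residual degrees of freedom. Signal over background did not limit miR-21, and the number of arrays did.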
